A study of Mus musculus with 5 samples.

Results

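The genes described here are the 9 mouse genes that cover dopamine synthesis (Th, Ddc), transport (Slc18a2, Slc6a3), receptors (Drd1, Drd5, Drd2, Drd4) and oxidation (Maoa), chosen by name out of 33635 genes of the deposited count table. Each had 1 row in it. Dopamine is made in the retina by a sparse set of amacrine cells, interneurons whose release of dopamine is driven by light and by image contrast, and the transmitter spreads through the tissue to receptors on photoreceptors, bipolar, amacrine, horizontal and ganglion cells. Tyrosine hydroxylase turns tyrosine into L-DOPA and DOPA decarboxylase turns L-DOPA into dopamine, which is then packed into vesicles, released, taken back up and oxidised. Receptors of the D1 class raise cyclic AMP through stimulatory G proteins, and those of the D2 class lower it through inhibitory ones. The system has a long history in myopia research, since drugs that act on dopamine receptors alter eye growth in animals whose vision is blurred.

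Retinal mRNA of male, wild-type C57BL6/J mice, an inbred laboratory strain, was sequenced at P42 after the right eye had worn a diffuser goggle for 2 weeks from P28. A diffuser removes image detail and induces form-deprivation myopia (FDM). The groups were 2 FDM and 3 Control libraries, Control being the uncovered fellow eye of an animal whose other eye was goggled, so that every animal carried the treatment and no untreated animal was among the libraries used here. FDM 1 and Control 1 are the eyes of one mouse, FDM 3 and Control 3 those of another, and Control 2 has no partner here. The second FDM library bears the number 2 in its sample title and 3 in the count table and in the supplement of the study, and the second numbering is used here. By the labels, refraction at P42 was 0.976 and 0.2745 D in the FDM eyes and 2.4455, 3.1505 and 2.465 D in the Control eyes. Below, values of single libraries follow this order, FDM 1 before FDM 3 and Control 1 before Control 2 and Control 3. Retinas were taken in the light phase at an hour not given in the sources used here.

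Depth ran from 40599047 to 56534931 estimated counts per library, and levels are given as CPM, counts scaled to a common library total after TMM, a correction for library composition. A gene counted 3 times, the detection limit used here, stood at 0.0526 to 0.0751 CPM depending on the library, and this limit reflects counting error alone. All 10 genes chosen as markers of retinal cells were present, and their summed level was 51717 and 55834 CPM in FDM and 46289 to 58846 CPM in Control, lowest in Control 2. Tissue from next to the retina, such as lens or the retinal pigment epithelium (RPE), was uneven across libraries. The 8 lens genes found summed to 2006 CPM in FDM 3 and to between 2.43 and 20.7 CPM elsewhere, and no lens or RPE gene of the lists was at 0 in any library. The 11 RPE genes summed to 81.0 and 90.0 CPM in FDM, to 93.4 CPM in Control 1, and to 283 and 272 CPM in Control 2 and Control 3. The 5 muscle genes summed to 47.6 CPM in Control 3 and to at most 8.61 CPM in the others, with Tnnt3 at 0 in Control 1.

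Per length, the RNA of 3 of the 4 dopamine receptors, Drd4, Drd2 and Drd1, stood above that of the genes that make or move dopamine, and that of Drd5 did not. On the scale of CPM per kilobase of annotated exon, the mean level over the 5 libraries was 48.5 for Drd4, 14.4 for Drd2, 10.6 for Drd1, 5.13 for Maoa, 1.86 for Slc18a2, 1.35 for Th, 1.16 for Drd5, 0.422 for Ddc and 0.0514 for Slc6a3. In this order the ranges of neighbouring genes over the 5 libraries did not overlap, except for Th, at 1.15 to 1.59, and Drd5, at 0.963 to 1.35. The gaps were narrow between Drd1, at most 12.5, and Drd2, at least 12.9, and between Th, at most 1.59, and Slc18a2, at least 1.65. When the longest transcript was used in place of all exons, the levels of Th, Ddc, Slc18a2 and Drd4 became 1.64, 0.934, 2.22 and 58.6, and the order stayed as it was. Dopamine cells are a small share of the retina, and bulk RNA cannot tell fewer cells of a type from less RNA per cell.

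**Figure D1:**
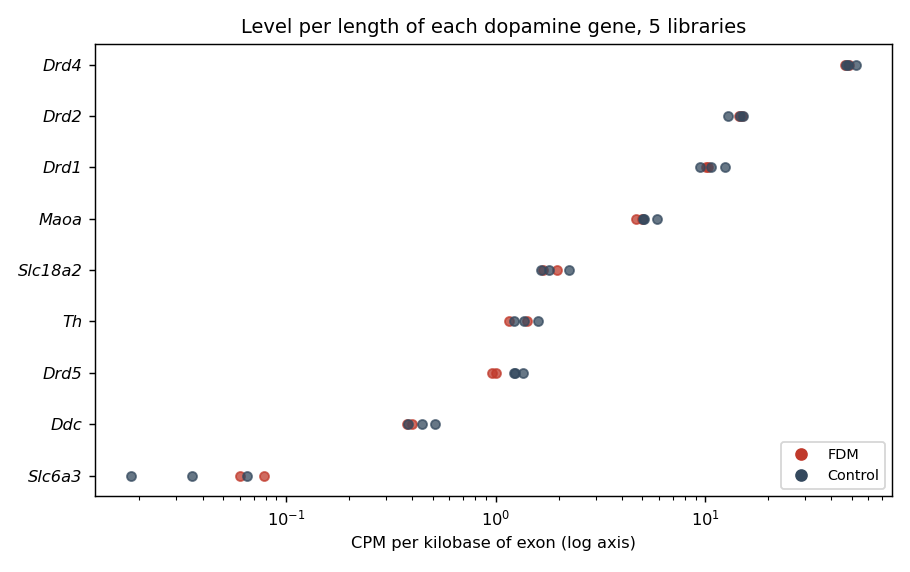
Level of each gene in CPM per kilobase of exon on a log axis, with 1 point for each of the 5 libraries, FDM in red and Control in blue. Drd4 stands highest, near 48.5, and Slc6a3 lowest, near 0.0514, and the points of Th and Drd5 overlap.

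To ask whether 2 weeks of form deprivation changed this system, the FDM and Control libraries were compared in one edgeR quasi-likelihood fit over the 17432 genes that exceeded 10 counts in 2 or more libraries. Of the 9 dopamine genes 8 passed this filter, the exception being Slc6a3, which is too sparse. One (1) of the 8, Drd5, had an unadjusted p under 0.05 and was lower in FDM eyes, against 281 of all 17432 genes, or 1.61% (79 higher and 202 lower). After Benjamini-Hochberg adjustment over all genes tested, 0 of the 8 passed in edgeR, as did 0 of all 17432 genes. By the unadjusted threshold DESeq2 called 0 of the 8. The log2 fold changes, FDM minus Control, had a median of -0.11 over the 8 genes and of -0.013 over all genes tested, and 7 of the 8 lay below 0, as did 9688 of the 17432. The animals used as a block kept 1 of the 8 genes under the unadjusted threshold, again Drd5, while raising the count over all genes to 1261, or 7.23%. Under the block Slc18a2 and Drd1 lay above 0 and Drd2 below it.

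**Figure D2:**
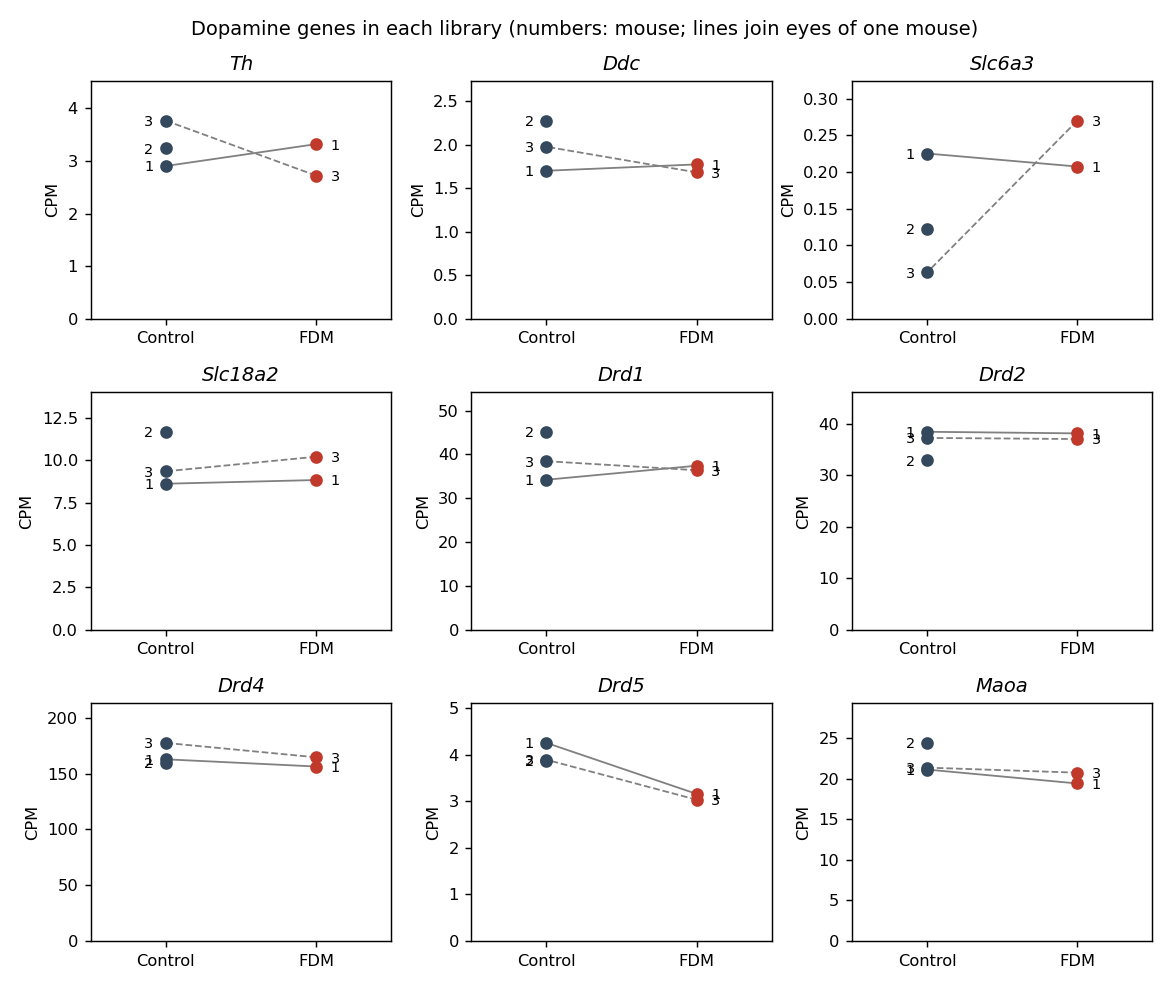
CPM of the 9 dopamine genes, 1 panel a gene with its own axis from 0, Control libraries at the left and FDM libraries at the right. Numbers are mice, the full line joins the eyes of mouse 1 and the broken line those of mouse 3. Drd5 falls along both lines, whereas the lines of Th cross.

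Th encodes tyrosine hydroxylase, the rate-limiting enzyme of dopamine synthesis, and lies on chromosome 7 of GRCm38 (142892752 to 142931128, minus strand). Its promoter is shown because it holds a cyclic AMP response element, through which many genes answer to neural activity. The sequence is chr7:142900015-142900245, minus strand, from 250 bases before the RefSeq start up to the first exon of the transcript that begins there (GRCm38.p6, RefSeq). It lies within the span just given for the gene, because other annotated transcripts of Th begin farther upstream. Capitals mark the motifs found.
Th promoter: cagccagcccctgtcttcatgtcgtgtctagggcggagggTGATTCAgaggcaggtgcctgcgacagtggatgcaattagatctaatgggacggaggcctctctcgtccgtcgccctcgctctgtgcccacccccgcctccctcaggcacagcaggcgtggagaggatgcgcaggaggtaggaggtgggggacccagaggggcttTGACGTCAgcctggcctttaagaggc
The match to TGACGTCA, the cyclic AMP response element, lies at positions -45 to -38 from the start. Searched on both strands, this motif is in 1.55% of 32851 promoters of the same 250 bases. The other run of capitals, at -210 to -204, is a match to TGANTCA, an AP-1 site, which is in 6.75% of promoters. Of the 11 promoters listed for the 9 genes, only that of Th held TGACGTCA.

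Th had 144 and 131 counts in FDM and 116, 185 and 179 in Control. As CPM these are 3.32 and 2.72 in FDM and 2.90, 3.24 and 3.77 in Control, so that the groups overlapped and FDM 1 lay above both Control 1 and Control 2. The means were 3.02 ± 0.423 CPM in FDM (SD, n = 2) and 3.31 ± 0.435 CPM in Control (SD, n = 3). The difference did not pass the threshold, with a fold of 0.913 (95% interval 0.683 to 1.22, unadjusted p = 0.484, adjusted p = 1.0 from edgeR). The eyes of the 2 animals went opposite ways. In mouse 1 the FDM eye held 1.14 times the Control eye's level (95% counting interval 0.889 to 1.47), and in mouse 3 it held 0.723 times that level (0.572 to 0.910). The log2 difference in mouse 3, -0.47, was larger than the widest difference between any 2 Control libraries, 0.38, whereas that in mouse 1, 0.19, was within it. Whether the animals differ in this was not tested, since each gave 1 pair. Without FDM 3 the group difference in Th was 0.0055 on the log2 scale.

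Ddc, on chromosome 11 (11814101 to 11898144, minus strand), encodes DOPA decarboxylase, which completes the synthesis of dopamine. RefSeq lists 2 promoters for Ddc. The downstream one, chr11:11890409-11890658 on the minus strand, held none of the motifs searched. Which of the 2 is used in the retina was not tested. The upstream one, chr11:11898145-11898394 on the minus strand (GRCm38.p6, RefSeq), is the one of the 2 that held matches, printed here in capitals. Its matches do not speak for the downstream promoter.
Ddc promoter: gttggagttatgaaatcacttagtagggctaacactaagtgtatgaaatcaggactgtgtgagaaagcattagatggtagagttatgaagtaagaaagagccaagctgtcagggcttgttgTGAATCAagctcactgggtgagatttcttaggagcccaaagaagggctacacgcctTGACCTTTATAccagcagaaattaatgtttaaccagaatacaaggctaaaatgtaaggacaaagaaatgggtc
The first run of capitals is an AP-1 match at -129 to -123. The second joins overlapping matches, one at -73 to -66 to AAAGGTCA on the opposite strand and one at -68 to -63 to TATAAA, also on the opposite strand. AAAGGTCA is the site known for orphan receptors of the Nr4a family and is in 1.34% of promoters, and TATAAA, the TATA box, is in 12.4%. Ddc was counted 77 and 81 times in FDM and 68, 130 and 94 times in Control. The CPM values were 1.78 and 1.68 in FDM and 1.70, 2.28 and 1.98 in Control, with Control 1 between the FDM libraries and Control 2 the highest. The fold was 0.868 (95% interval 0.636 to 1.18, unadjusted p = 0.318, adjusted p = 1.0 from edgeR). Within mouse 1 the ratio of FDM to Control was 1.04 (95% counting interval 0.743 to 1.47) and within mouse 3 it was 0.851 (0.624 to 1.16), so that neither pair differed beyond counting error.

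Slc18a2 (chromosome 19, 59260896 to 59296012) encodes the vesicular monoamine transporter that loads dopamine into synaptic vesicles. It had 383 and 491 counts in FDM and 344, 666 and 444 in Control. As CPM these were 8.83 and 10.2 in FDM and 8.61, 11.7 and 9.35 in Control, and the FDM values fell inside the Control range. The fold was 0.962 (95% interval 0.747 to 1.24, unadjusted p = 0.732, adjusted p = 1.0 from edgeR). The FDM eye held 1.03 times the Control eye's level in mouse 1 (95% counting interval 0.884 to 1.19) and 1.09 times in mouse 3 (0.958 to 1.24). The group difference in Slc18a2 changed sign with single libraries, being 0.045 on the log2 scale without FDM 1 and 0.094 without Control 2. An antisense gene, Gm29261, shares 2.1% of the exon bases of Slc18a2.

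Slc6a3 (chromosome 13, 73536747 to 73578672) encodes the plasma membrane transporter that takes dopamine back into the cell, and it was barely detected. The counts were 9 and 13 in FDM and 9, 7 and 3 in Control, the last being at the detection limit. In CPM the FDM libraries stood at 0.208 and 0.270 and the Control libraries at 0.225, 0.123 and 0.0632, with Control 1 between the FDM libraries. In mouse 1 the ratio of FDM to Control was 0.921 (95% counting interval 0.324 to 2.62) and in mouse 3, on 13 against 3 counts, it was 4.28 (1.18 to 23.4). The gene was not part of the main fit. With the count filter dropped, its log2 fold change was 0.83 (unadjusted p = 0.172, adjusted p = 1.0 from edgeR). A change smaller than the width of these intervals was not detectable at this depth.

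**Figure D3:**
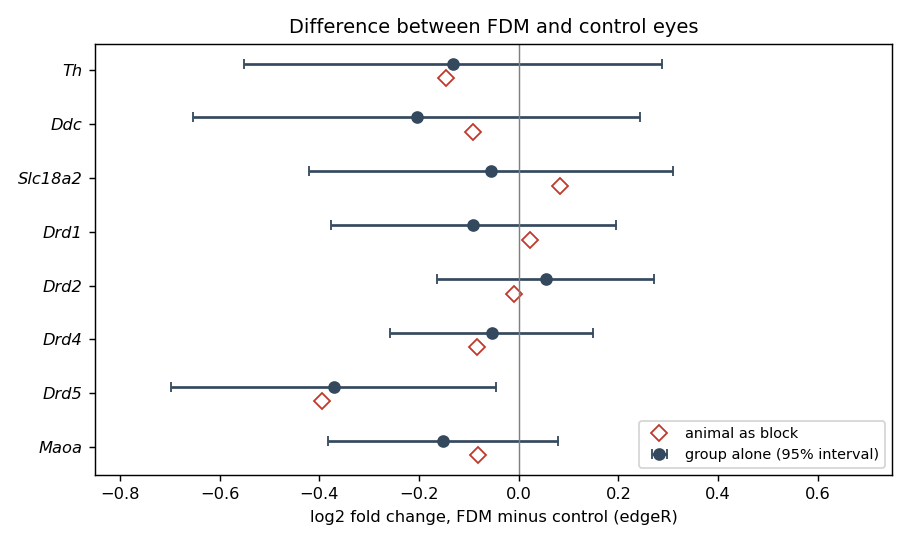
Log2 fold change of the 8 tested genes, FDM minus Control, from edgeR. Filled points are the fit on the group alone with 95% intervals, open diamonds the fit with the animal as a block. Only the interval of Drd5, from -0.70 to -0.046, leaves out 0, and the diamonds of Slc18a2, Drd1 and Drd2 lie across 0 from their points.

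Among the receptors, only Drd5 passed the unadjusted threshold, and it was lower in both FDM eyes. Drd4 was also lower in the FDM eye of both animals, as was Drd2 by a margin that depended on the scaling. Drd5 encodes the D5 receptor, a D1-class receptor with high affinity for dopamine, and is a gene of 1 annotated exon on chromosome 5 (38319367 to 38322518). The part of its promoter window before the annotated gene, chr5:38319259-38319366 on the plus strand (GRCm38.p6, RefSeq), is given because Drd5 is the gene that passed the unadjusted threshold.
Drd5 promoter: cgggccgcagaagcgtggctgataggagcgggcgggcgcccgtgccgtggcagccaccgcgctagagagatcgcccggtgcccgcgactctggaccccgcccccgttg
None of the 5 motifs searched (the 4 already given and CACGTG, the E-box, which is in 6.02% of promoters) matched in the 250 bases before its RefSeq start, so nothing is in capitals. Among the 9 genes CACGTG matched for Slc6a3, at -197 to -192. The printed Drd5 stretch was 75.9% G and C.

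Drd5 had 137 and 146 counts in FDM and 170, 221 and 185 in Control. The CPM values were 3.16 and 3.03 in FDM and 4.26, 3.88 and 3.89 in Control, so that the groups did not overlap. The mean fell from 4.01 ± 0.215 CPM in Control (SD, n = 3) to 3.10 ± 0.0881 CPM in FDM (SD, n = 2). This is a log2 fold change of -0.37 with a standard error of 0.14, or a fold of 0.773 (95% interval 0.617 to 0.969), and edgeR gave an unadjusted p = 0.0306 and adjusted p = 1.0. In mouse 1 the FDM eye held 0.742 times the Control eye's level (95% counting interval 0.588 to 0.935) and in mouse 3 0.779 times (0.623 to 0.973). Both log2 differences, -0.43 and -0.36, were larger than the widest difference between Control libraries, 0.14. That widest difference is itself narrower than the counting intervals of the pairs, so it is a weak yardstick. The fit used these same libraries, so the pairs add no separate support. Under the block the log2 fold change was -0.39 (unadjusted p = 0.0311, adjusted p = 0.654 from edgeR).

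For 2 of the 8 tested genes, Drd5 and Maoa, each FDM value was below every Control value, an arrangement found in 6.67% of all genes tested. The reverse arrangement was found for 0 of the 8 and in 3.98% of all. The call for Drd5 was not firm. In DESeq2's Wald test it had an unadjusted p = 0.0725 (adjusted p = 1.0), and in edgeR the unadjusted p was 0.113 without FDM 1, 0.168 without FDM 3 and 0.0675 without Control 1 (adjusted p from 0.829 to 1.0 in edgeR), while the log2 fold change ranged from -0.40 to -0.33 as single libraries were left out. Of the 11 RPE genes 5 had an unadjusted p under 0.05 in edgeR, each lower in FDM, against 1.61% of all genes tested. All 8 lens genes also had such a p, each being highest in FDM 3. The sum of the 11 RPE genes was 81.0 and 90.0 CPM in FDM and 93.4, 283 and 272 CPM in Control. The part of RPE tissue in the Drd5 difference was not tested. With the lens, RPE, muscle and blood genes taken out before scaling, the log2 fold change of Drd5 was -0.37. That step leaves the counts of Drd5 as they are, so it cannot show the part of other tissue in them. The antisense gene Gm26560 covers 48.6% of the exon bases of Drd5 in the annotation, and with a library kit that does not mark strand, reads of the 2 genes cannot be told apart.

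Drd1 (chromosome 13, 54051183 to 54055705), the other D1-class receptor, is known in bipolar, horizontal and amacrine cells. Its counts were 1623 and 1751 in FDM and 1367, 2576 and 1827 in Control. In CPM the FDM eyes had 37.4 and 36.4 and the Control eyes 34.2, 45.2 and 38.5, so that both FDM libraries lay between Control 1 and Control 3. The fold was 0.939 (95% interval 0.770 to 1.14, unadjusted p = 0.479, adjusted p = 1.0 from edgeR). In mouse 1 the ratio of FDM to Control was 1.09 (95% counting interval 1.02 to 1.18), within the spread of the Control libraries, and in mouse 3 it was 0.946 (0.886 to 1.01). Without Control 2 the log2 fold change of Drd1 was 0.031. Per length, Drd1 stood 10.3 and 10.4 times above Drd5 in FDM 1 and FDM 3 and 6.99, 10.1 and 8.58 times above it in Control 1, Control 2 and Control 3.

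Drd2 (chromosome 9, 49340627 to 49408177) encodes the D2 receptor, which serves as the autoreceptor of dopamine cells among other roles. It had 1652 and 1780 counts in FDM and 1534, 1874 and 1768 in Control. The CPM values of 38.1 and 37.0 in FDM fell inside the Control range of 38.4, 32.9 and 37.2. The fold was 1.04 (95% interval 0.893 to 1.21, unadjusted p = 0.573, adjusted p = 1.0 from edgeR). The eyes of an animal were closest for this gene, with ratios of 0.992 in mouse 1 (95% counting interval 0.925 to 1.06) and 0.994 in mouse 3 (0.930 to 1.06), smaller distances from 1 than for any other of the 9 genes in the same animal.

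Drd4 (chromosome 7, 141292006 to 141296464) encodes the D4 receptor, the D2-class receptor of photoreceptors. It was the most abundant of the 9, with 6777 and 7916 counts in FDM and 6499, 9088 and 8429 in Control. At 156 and 165 CPM in FDM and 163, 159 and 177 CPM in Control, the groups overlapped. The fold was 0.963 (95% interval 0.836 to 1.11, unadjusted p = 0.555, adjusted p = 1.0 from edgeR). Both pairs were slightly lower in the FDM eye, at 0.960 times the Control level in mouse 1 (95% counting interval 0.928 to 0.994) and 0.927 times in mouse 3 (0.899 to 0.956). Counting error alone does not cover these differences, but each was smaller than the log2 difference of 0.15 between the Control libraries farthest apart. Without Control 3 the log2 fold change of Drd4 was 0.00074.

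Maoa (X chromosome, 16619698 to 16687818) encodes monoamine oxidase A, a mitochondrial enzyme that oxidises dopamine and other monoamines. Its counts were 841 and 997 in FDM and 843, 1391 and 1014 in Control. The CPM values were 19.4 and 20.7 in FDM and 21.1, 24.4 and 21.3 in Control, with no overlap but with only a small gap between FDM 3 and Control 1. The fold was 0.900 (95% interval 0.767 to 1.06, unadjusted p = 0.164, adjusted p = 1.0 from edgeR), so the difference did not pass the threshold. Within animals the ratios were 0.919 (95% counting interval 0.834 to 1.01) and 0.971 (0.889 to 1.06), and both intervals held 1.

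**Figure D4:**
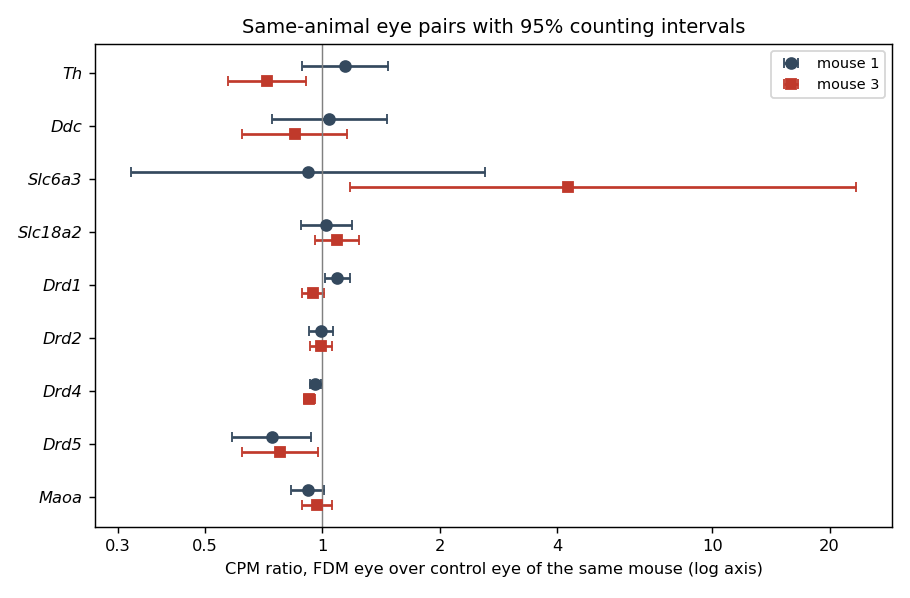
Ratio of CPM in the FDM eye to CPM in the Control eye of the same animal on a log axis, mouse 1 as blue circles and mouse 3 as red squares, with 95% intervals that cover counting error only. Drd5 lies below 1 in both animals, at 0.742 and 0.779, Th lies on either side of 1, and the interval of Slc6a3 in mouse 3 reaches 23.4.

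Across the same-animal pairs, 4 of the 8 tested genes (Drd2, Drd4, Drd5 and Maoa) were lower in the FDM eye of both animals, which 30.3% of all genes tested were, and 1 (Slc18a2) was higher in both, which 24.7% were. The direction of Drd2 depended on the scaling, its log2 differences of -0.012 and -0.0085 becoming 0.0089 and 0.0098 when only library totals were used, and 0.0045 in mouse 1 with RLE factors. Ddc, Slc18a2, Drd1 and Maoa were highest, and Drd2 lowest, in Control 2, the library with the lowest sum of retinal markers. The part of that library's makeup in these values was not tested. FDM 3, the library with the lens signal, was the highest library for none of the 8 tested genes, and was the highest for Slc6a3.

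Likeness of other genes to Th was measured as the root mean square difference of log2 CPM, centred on each gene's mean, over the 5 libraries. The genes nearest to Th among the 17431 others were Stox1 at 0.022, Gm17076 at 0.025 and Acat3 at 0.038. Drd4 ranked 1561, Ddc 2170 and Drd1 3374 in this order, and Slc18a2 ranked 11641, at 0.23. By this measure a gene of little variation lies fairly near to Th whatever its pattern. Drd4 had an SD of 0.070 in log2 CPM over the 5 libraries, against 0.18 for Th. These ranks therefore do not show that a gene shares the pattern of Th. Acat3 has a close paralog with which it may share reads, so its values are uncertain.

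The other genes of the pathway were taken from a list of 36, of which 34 passed the count filter. On the group alone, 0 of the 34 passed the unadjusted threshold in edgeR, against the 1.61% of all genes, and DESeq2 also called 0. Their log2 fold changes had a median of -0.031, with 10 above and 24 below 0. With the animal as a block 4 of the 34 passed the unadjusted threshold, 2 higher and 2 lower, against 7.23% of all genes, and 0 passed adjustment in edgeR.

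Tetrahydrobiopterin is the cofactor of tyrosine hydroxylase, and 6 genes of its synthesis and recycling (Gch1, Gchfr, Pts, Spr, Qdpr and Pcbd1) were tested. None (0) passed either fit, where 1.61% of all genes passed on the group alone and 7.23% under the block. The log2 fold changes of the 6 ran from -0.11 to 0.28. Of 4 further genes of dopamine breakdown, 0 passed on the group alone, and their log2 fold changes had a median of -0.12.

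Of 18 genes that carry or respond to receptor signals, 0 passed on the group alone, against 1.61% of all genes. Under the block 2 passed, both higher in FDM, against 7.23% of all genes. Gnal encodes a stimulatory G protein subunit coupled to D1-class receptors in brain, and had 1513 and 1663 counts in FDM and 1166, 2010 and 1517 in Control. In CPM it stood at 34.9 and 34.6 in FDM and at 29.2, 35.2 and 31.9 in Control, so that the groups overlapped. Under the block its log2 fold change was 0.18 (unadjusted p = 0.0169, adjusted p = 0.619 from edgeR), against 0.11 without it. Adcy1 encodes an adenylyl cyclase, known in photoreceptors to be governed by the D4 receptor, and had 20380 and 20399 counts in FDM and 17240, 26783 and 18413 in Control. In CPM it stood at 470 and 424 in FDM and at 432, 470 and 388 in Control, so that the groups overlapped here too. Its block log2 fold change was 0.13 (unadjusted p = 0.0307, adjusted p = 0.654 from edgeR), against 0.06 without the block.

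Genes tied to the dopamine cell itself were Nr4a2, a transcription factor that acts on Th in midbrain dopamine neurons, and Park7, among 3 tested. Park7 passed under the block, with a log2 fold change of -0.16 (unadjusted p = 0.0253, adjusted p = 0.637 from edgeR) against -0.09 without it. Its counts were 4944 and 5492 in FDM and 4878, 6229 and 6288 in Control. In CPM these were 114 and 114 in FDM and 122, 109 and 132 in Control, so that the groups overlapped. For 4 of the 34 genes each FDM value was below every Control value, an arrangement found in 6.67% of all genes tested. For 0 of the 34 each FDM value was above, against 3.98% of all. Maob, Adcy8 and Nr4a2 were among the 4, named after their values were seen. Nr4a2 had the smallest p of the list on the group alone, 0.0864 (adjusted p = 1.0 from edgeR), at a log2 fold change of -0.26.

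Drd3 and the genes of other catecholamines were low or not detected. Drd3, the remaining D2-class receptor, had 0 counts in all 5 libraries, which allows a level of up to 0.0526 to 0.0751 CPM. Dbh, which makes noradrenaline and marks sympathetic neurons, had 9 to 14 counts, Pnmt 2 to 9 and Slc18a1 5 to 19. Slc6a2, the noradrenaline transporter, had 48 to 84 counts. Of these 5 genes 3 were tested, and 0 passed in either fit. Over all genes 1.61% passed on the group alone and 7.23% under the block.

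**Figure D5:**
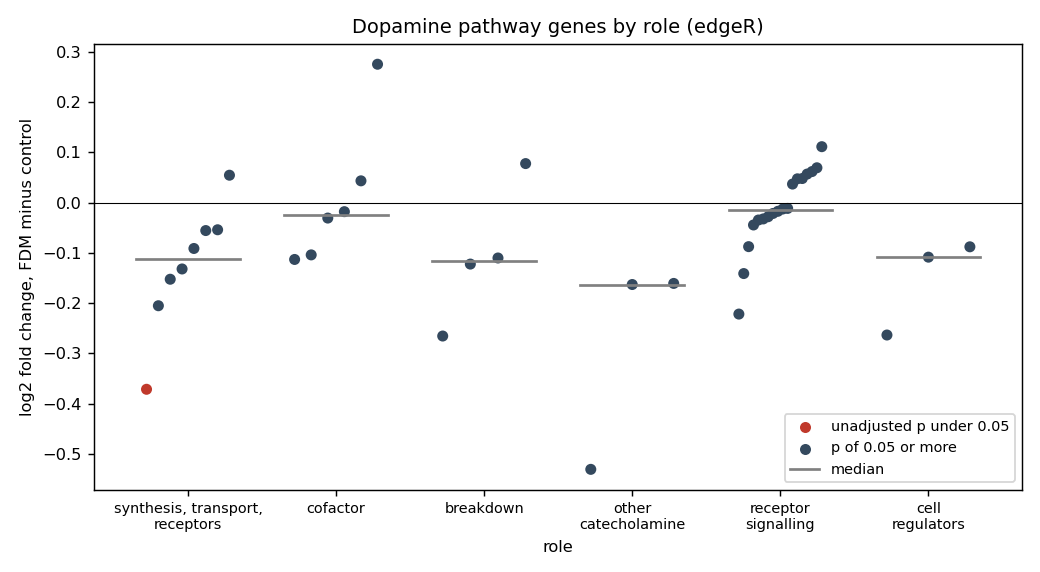
Log2 fold change, FDM minus Control, of the 8 tested dopamine genes and the 34 other pathway genes by role, 1 point a gene, with the median of each role as a grey line. Drd5 is the only point in red, the colour for an unadjusted p under 0.05 on the group alone, and Slc18a1, at -0.53, is the lowest.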

How the data were processed

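The libraries came from poly-A RNA with a TruSeq v2 kit. The authors trimmed reads with Trimmomatic and quantified them with Salmon (0.39 and 1.10.1 in the submitters' processing notes, which also name GRCm38 and R 4.3.1), and they removed 1 FDM library for read duplication. They deposited estimated counts per gene as whole numbers, and a signal of counts normalized in DESeq2, which divides each gene and library by a factor of its own. The eyes were paired by the mouse numbers of the study's supplement. Deviations from group means correlated at 0.229 (mouse 1) and 0.0884 (mouse 3) across genes, and at 0.151 for FDM 3 with Control 2, the pair that the sample titles would give. With only 2 FDM libraries, the deviations of one are the opposite of the other's. These correlations are therefore not independent and cannot decide the pairing.

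Genes above 10 estimated counts in 2 or more libraries were fitted with edgeR 4.0.16 (TMM, quasi-likelihood test, two-sided, no covariate) in R 4.3.3. The threshold was the study's unadjusted p of 0.05, and Benjamini-Hochberg values cover all 17432 genes. Intervals use the fit's standard error, and counting intervals are exact binomial ones on the counts of a pair. DESeq2 1.42.0, limma 3.58.1 on the log2 deposited signal plus 1 or 0.1, other scalings, filters, blocks and left-out libraries served as alternatives. In 1 case a gene identifier was repeated and its second row was dropped. The libraries of a group came from different animals. Coordinates and lengths are from GENCODE M21 on GRCm38, promoters from RefSeq GRCm38.p6, which listed 11 for the 9 genes. The scripts were tested on simulated counts.

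Genes and lists (the 9 dopamine genes, 36 pathway genes, and markers of retina, amacrine cells, lens, RPE, muscle, blood and vessels) were chosen with earlier results of these data known. Lim2, a lens gene, was not analysed here. The rule named all 9 genes, the pathway genes with an unadjusted p under 0.05 in either fit, and the 3 genes nearest to Th. Results for 2 genes of the pathway list are not reported here.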

Additional observations from a re-analysis of the deposited data

How the results depend on the processing

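Of 128 values of the 8 tested genes under 16 alternatives each, 115 kept their direction and side of the unadjusted threshold, 5 for Drd5 lost the call and 8 changed sign. Ddc and Maoa kept their direction in all 16, but without Control 2 moved from -0.205 to -0.0828 and from -0.152 to -0.0711 on the log2 scale. The count of dopamine genes called was 1, and 0 in DESeq2, 0 with title numbers as the replicate block, and 0 to 1 when each library was left out (lone FDM libraries being assumed to vary like Control). The count of other pathway genes called was 0, and 1 in limma with either pseudocount, 4 with the animal as replicate block, 1 with title numbers and 0 to 2 with a library left out. Over all genes the 281 calls became 172 in DESeq2, 500 and 493 in limma with a pseudocount of 1 and 0.1 (213 higher and 287 lower with the first), 498 with no count filter, 1261 with the animal block, 439 with title numbers and 146 to 944 with a library left out, 944 (386 higher) being without Control 1 and 550 (355 higher) without Control 2. After adjustment 3 genes passed in DESeq2, 54 with the animal block, 128 with title numbers, 16 without FDM 1 and 12 without Control 1, and 0 dopamine or pathway genes in each of these. Under the animal block, the log2 fold change changed sign for Slc18a2 (0.0832), Drd1 (0.0229) and Drd2 (-0.0102), and changed no call. With a library left out it ran from -0.164 to 0.0941 for Slc18a2, -0.179 to 0.0314 for Drd1, -0.281 to 0.00549 for Th and -0.0914 to 0.00074 for Drd4. Why single libraries shifted these values was not tested. Of 54 pair differences under other scalings 1 moved by more than the SD of the Control libraries, that of Ddc in mouse 3, to -0.47 in the deposited normalized counts. The block takes the difference between the groups from the 2 same-animal pairs, because Control 2 has no partner. It leaves 1 residual degree of freedom, and counts of 3 to 13 limit Slc6a3.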

Other observations

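Dopamine is made by amacrine cells, and 9 markers of amacrine cells at large were read in the same fit. All 9 were tested and 0 passed the unadjusted threshold in edgeR, against 1.61% of all genes tested. Their summed level was 1525 and 1566 CPM in FDM and 1561 to 1688 CPM in Control. With the animal as a block 1 of the 9 passed that threshold, against 7.23% of all genes, and 0 passed adjustment. This was Calb2, which encodes the calcium-binding protein calretinin, named after its values were seen. It stood at 259 and 311 CPM in FDM and at 297, 334 and 395 CPM in Control, so that the groups overlapped, and it was lower in the FDM eye of both animals. Its log2 fold change was -0.26 on the group alone (unadjusted p = 0.103, adjusted p = 1.0 from edgeR) and -0.27 under the block (unadjusted p = 0.00082, adjusted p = 0.170 from edgeR). Tfap2b, another of the 9 and also named after its values were seen, went the other way. It stood at 209 and 207 CPM in FDM and at 202, 203 and 182 CPM in Control. Its log2 fold change under the block was 0.12 (unadjusted p = 0.0641, adjusted p = 0.695 from edgeR). The 6 vessel markers summed to 265 and 229 CPM in FDM and to 212 to 264 CPM in Control. The 5 blood markers summed to 43.1 and 32.9 CPM in FDM and to 41.2 to 47.6 CPM in Control. On the group alone 0 genes passed in either list, against 1.61% of all genes tested.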
